A study of Mus musculus with 11 samples.

Results

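MHC antigen presentation and dendritic cell genes were followed in bulk RNA sequencing of mouse left ventricle, as 35 named genes matched by symbol to the gene identifiers of the count files. All 35 were among the 25006 genes in the files, and all 35 were among the 14779 that passed the filter on low counts. The members were chosen by name with their TMM-scaled levels in these same libraries known, so every contrast below had been seen. The adjusted p-values come from a fit over all tested genes and, like the counts of members, they describe these libraries and support nothing about the list. It holds 10 genes of the MHC class II pathway, 10 genes for class I heavy chains and B2m, 6 genes of class I peptide loading and its regulator, 4 costimulatory genes and 5 genes used as markers of dendritic cells.

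The 11 libraries fell into 4 groups. Infarcted tissue came from animals 9 days after permanent ligation of the left anterior descending coronary artery, which causes a myocardial infarction (MI), and naive tissue of similar mass and position came from animals without ligation. The Vegfc-deficient groups carried Vegfc fl/fl with LysMCre, in which Cre recombinase is made from the Lyz2 locus of myeloid cells, so that deletion of Vegfc is directed to macrophages and monocytes and may reach neutrophils. There were 2 naive control, 3 MI control, 3 naive Vegfc-deficient and 3 MI Vegfc-deficient libraries, each named here by its mouse number. For the controls the sources differ, since the genotype label gives Vegfc fl/fl whereas the tissue collection protocol and the methods give LysMCre mice, and the ages of the animals were not given in the sources used here.

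MHC class II molecules carry peptides from ingested proteins to CD4+ T cells, and are made mainly by dendritic cells, B cells and activated macrophages under the control of the coactivator CIITA. MHC class I molecules carry peptides made in the cytosol to CD8+ T cells on nearly every nucleated cell, with NLRC5 as the matching coactivator, and both coactivators respond to interferon gamma. In the heart, dendritic cells are a sparse population beside resident macrophages, and after infarction monocyte-derived cells that can express class II enter the damaged wall.

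Library totals ran from 10824989 to 26782728 counts, and 3 counts corresponded to between 0.101 and 0.363 CPM, the count per library total in the usual unit, here after TMM scaling, which adjusts each total for differences in composition. Cardiomyocyte markers summed to between 70587 and 87646 CPM in naive libraries and to between 2664 and 21704 CPM in MI libraries. Lyz2, whose locus carries Cre in LysMCre mice, ranged from 2121 to 5380 CPM in the 5 control libraries and from 12.4 to 1392 CPM in 5 of the 6 Vegfc-deficient libraries. The library labelled naive Vegfc-deficient M149 stood apart from these with 4565 CPM of Lyz2. A list of 6 alveolar macrophage markers summed to 1744 CPM in M149 and to 661 and 686 CPM in the naive controls. It summed to 72.4 and 119 CPM in the other naive Vegfc-deficient libraries and to at most 38.1 CPM after MI. In M149 and the naive controls most of it came from Chil3, which some monocytes also express. Chil3 had 666 and 215 reads in M34 and M150, against 767 and 368 of Car4. In M35, the MI library with the highest sum, it had 65 reads, against 328 of Marco and 241 of Car4. Siglecf was at most 2.65 CPM and Ear1 at 0.121 CPM or below. The part of these markers in the naive levels of the members was not tested. Vegfc itself overlapped between the genotypes in whole tissue, at 21.9 to 45.5 CPM in controls and 22.4 to 34.5 CPM in Vegfc-deficient libraries. Xist ranged from 188 to 403 CPM in all 6 MI libraries and stayed at 11.8 CPM or below in the 5 naive libraries, whereas 4 Y-linked genes summed to between 152 and 195 CPM in naive libraries and to at most 1.84 CPM in MI libraries. The sex of the animals and MI therefore cannot be told apart in any MI against naive value below. In whole tissue, fewer cells of a type and less RNA per cell cannot be told apart either.

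The promoters of class II genes are known for an X box followed by a Y box, the sites on which CIITA is assembled with RFX, CREB and NF-Y, and class I promoters for a related module with sites for NF-kappa B and interferon regulatory factors upstream. Promoter windows of 300 bases, from 250 before to 50 after the start site, were found for 25 of the 35 members in RefSeq (GRCm38.p6). The 150 bases before the start site are printed 5′ to 3′ for 6 class II genes and 4 class I genes. They were picked from the members that hold at least the Y box letters and whose levels are given below. Other such members are not printed, among them H2-DMa, whose X1 and Y box letters lay in separate windows. Capitals mark every match, on either strand, to CCNNGNAAC (X1 box), TGACG (core of the X2 box), ATTGG (Y box), the interferon-stimulated response element (GAAA, any 2 bases, GAAA) or the kappa B site that stands upstream of TGACG in H2-K1.
H2-Aa (chr17:34287824-34287973, minus strand): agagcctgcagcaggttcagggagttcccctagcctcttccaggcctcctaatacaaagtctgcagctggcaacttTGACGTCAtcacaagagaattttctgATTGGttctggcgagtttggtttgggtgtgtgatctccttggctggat
H2-Eb1 (chr17:34305717-34305866, plus strand): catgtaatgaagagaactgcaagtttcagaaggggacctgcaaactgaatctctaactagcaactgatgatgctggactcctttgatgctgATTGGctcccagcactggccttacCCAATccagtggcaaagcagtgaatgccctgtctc
H2-DMb1 (chr17:34153041-34153190, plus strand): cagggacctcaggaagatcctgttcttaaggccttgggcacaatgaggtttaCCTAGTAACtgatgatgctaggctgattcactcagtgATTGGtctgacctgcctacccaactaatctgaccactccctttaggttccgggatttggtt
H2-DMb2 (chr17:34145099-34145248, plus strand): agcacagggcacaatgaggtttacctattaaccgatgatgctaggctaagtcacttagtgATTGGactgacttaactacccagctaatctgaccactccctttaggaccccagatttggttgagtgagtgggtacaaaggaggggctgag
H2-Oa (chr17:34092229-34092378, plus strand): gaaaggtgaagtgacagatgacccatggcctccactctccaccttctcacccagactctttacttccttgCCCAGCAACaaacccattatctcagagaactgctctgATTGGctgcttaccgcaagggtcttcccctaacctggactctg
H2-Ob (chr17:34238755-34238904, plus strand): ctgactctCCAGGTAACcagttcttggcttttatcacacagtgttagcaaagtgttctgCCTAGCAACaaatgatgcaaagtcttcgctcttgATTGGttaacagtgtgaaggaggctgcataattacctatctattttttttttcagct
H2-K1 (chr17:34000348-34000497, minus strand): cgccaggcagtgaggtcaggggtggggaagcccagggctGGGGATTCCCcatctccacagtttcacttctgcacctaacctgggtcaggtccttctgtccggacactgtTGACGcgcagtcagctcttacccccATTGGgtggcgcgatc
H2-D1 (chr17:35262944-35263093, plus strand): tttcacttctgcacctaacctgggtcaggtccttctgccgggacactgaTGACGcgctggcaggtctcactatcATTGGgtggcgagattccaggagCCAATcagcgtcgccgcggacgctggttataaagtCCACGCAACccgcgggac
H2-T22 (chr17:36042743-36042892, minus strand): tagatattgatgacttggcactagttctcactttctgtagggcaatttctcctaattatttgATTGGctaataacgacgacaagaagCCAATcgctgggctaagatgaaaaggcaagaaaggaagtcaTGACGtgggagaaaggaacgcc
B2m (chr2:122147537-122147686, plus strand): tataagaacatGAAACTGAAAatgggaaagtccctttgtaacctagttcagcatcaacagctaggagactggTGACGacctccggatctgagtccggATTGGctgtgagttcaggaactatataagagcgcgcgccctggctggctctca
In H2-Aa the X2 letters matched on both strands over the same stretch. These stretches are referred to again where the levels of the genes are given.

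All 7 class II genes with a window held the Y box letters, which occur in 37.4% of the 32851 promoter windows of that length. CCNNGNAAC was present in 4 of those 7 genes and in 15.1% of all windows. An X1 box followed by a Y box on the same strand, 15 to 60 bases apart, was found in 3 of the 7, namely H2-Oa, H2-DMb1 and H2-Ob, with 37, 37 and 34 bases between their first letters, and in 0.746% of all windows. Among the 12 class I and loading genes with a window, 11 held the Y box letters and 8 held TGACG, against 20.8% of all windows. The kappa B letters occurred in H2-K1, H2-D1, H2-Q6 and H2-Q7, and in 0.107% of all windows. The interferon-stimulated response element letters occurred in B2m, H2-T22, H2-T23 and Erap1, against 3.44% of windows, and in none of the 7 class II windows. Of the 6 costimulatory and dendritic cell genes with a window, Flt3 held the X1 letters, and none held the Y box. These matches describe letters only and were not tested for binding.

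At the class II locus on chromosome 17, the chains of the I-A molecule (H2-Aa, chr17:34282744-34287823, and H2-Ab1, chr17:34257689-34269419, GRCm38) and the invariant chain Cd74, which guides class II through the cell, were measured beside H2-Eb1, the beta chain of the I-E molecule. Per kilobase of exon, naive control hearts averaged 252 CPM of Cd74, 133 of H2-Aa, 99.6 of H2-Eb1 and 64.9 of H2-Ab1, against 0.387 of Ciita. H2-Aa was at 544 and 466 CPM in naive controls M45 and M44, and at 555, 564 and 402 CPM in naive Vegfc-deficient M34, M150 and M149. After MI it was at 3365, 854 and 552 CPM in controls M38, M006 and M40, and at 568, 687 and 990 CPM in Vegfc-deficient M35, M913 and M900. One library, MI control M38, was far above all others, and the other 5 MI libraries spread from just under the highest naive value to less than double it. Cd74 had the same shape, with 499 and 347 CPM in naive controls, 468, 417 and 340 CPM in naive Vegfc-deficient hearts, 4214, 797 and 574 CPM in MI controls and 594, 690 and 943 CPM in MI Vegfc-deficient hearts. Every MI library exceeded every naive one for Cd74, whichever the genotype. H2-DMb1 was at 13.9 to 27.2 CPM in naive libraries, 166 CPM in M38 and 26.1 to 36.6 CPM in the other MI libraries, and H2-Ab1 at 101 to 208, 1987 and 242 to 359 CPM.

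**Figure D1:**
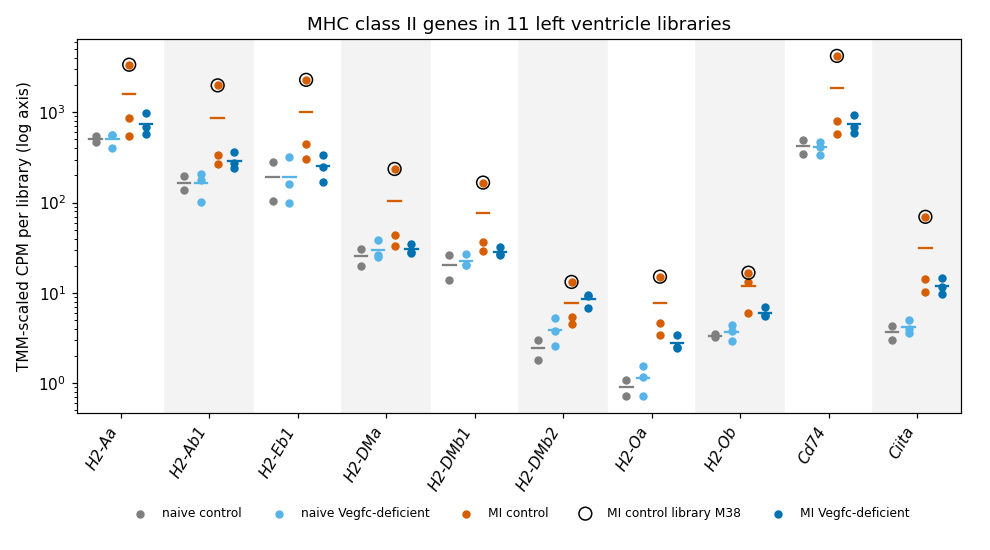
TMM-scaled CPM (log axis) of the 10 class II pathway genes in each of the 11 libraries; points are libraries, short bars are group means, and a ring marks MI control M38. M38 was the highest of the 6 MI libraries for all 10 genes, and the summed level of the 10 was 12371 CPM in M38, 1784 to 2637 CPM in the other 5 MI libraries and 1001 to 1626 CPM in the naive libraries.

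Ciita, the coactivator on which class II transcription depends, was at 4.35 and 3.03 CPM in naive controls and at 3.99, 4.96 and 3.63 CPM in naive Vegfc-deficient hearts. It was at 69.6, 14.4 and 10.3 CPM in MI controls M38, M006 and M40, and at 11.6, 9.73 and 14.7 CPM in MI Vegfc-deficient hearts. The lowest MI library thus lay well above the highest naive library in both genotypes. H2-Oa, a chain of the H2-O complex that restrains peptide exchange, was at 1.09 and 0.714 CPM in naive controls, 1.55, 0.726 and 1.18 CPM in naive Vegfc-deficient hearts, 15.1, 4.68 and 3.45 CPM in MI controls and 3.41, 2.53 and 2.47 CPM in MI Vegfc-deficient hearts. All 3 MI controls exceeded all 3 MI Vegfc-deficient hearts for this gene, and all 6 exceeded the naive hearts. Its partner H2-Ob was at 16.7, 13.2 and 5.94 CPM in MI controls and at 6.93, 5.67 and 5.53 CPM in MI Vegfc-deficient hearts, against 2.94 to 4.39 CPM in the 5 naive libraries.

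H2-DMa and H2-DMb1, which form the H2-M complex that loads peptide onto class II, were far higher in M38 than in any other library. H2-DMa was at 30.7 and 19.9 CPM in naive controls, 38.4, 26 and 25.1 CPM in naive Vegfc-deficient hearts, 236, 43.6 and 33.2 CPM in MI controls and 28, 27.9 and 35.1 CPM in MI Vegfc-deficient hearts. Without M38, the 5 MI libraries overlapped the naive range of this gene over both genotypes, although M006 and M40 exceeded both naive controls. H2-DMb2, the second beta chain of H2-M and a close copy of H2-DMb1, was at 1.81 and 3.03 CPM in naive controls, 2.6, 3.75 and 5.29 CPM in naive Vegfc-deficient hearts, 13.2, 5.38 and 4.51 CPM in MI controls and 6.88, 9.48 and 9.22 CPM in MI Vegfc-deficient hearts. It was the class II gene least elevated in M38, at 1.92 times the median of the other 5 MI libraries. Of its transcript stretches of 50 bases, 21.2% also occurred in H2-DMb1, so reads could be shared between these genes depending on how they were counted.

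For MI against naive in control hearts, 13 of the 35 members were called higher and none lower at a Benjamini-Hochberg threshold of 0.05 in the edgeR quasi-likelihood fit, where 50.4% of all tested genes were called and 26.3% were called higher. In 21 of the 35 every MI library exceeded every naive library, against 39.1% of all genes in that direction. DESeq2 called 16 members, against 46.5% of its genes. As the choice of members used this contrast, nothing is read from these counts. Class II accounted for 9 of the 13, with a median log2 fold change over its 10 genes of 2.09, against 0.13 over all tested genes. The largest class II change was that of H2-Oa, at a log2 fold change of 3.10 (SE 0.69), followed by Ciita at 3.09 (SE 0.77), with adjusted p of 0.00435 and 0.00762 (edgeR). H2-Ab1 had 2.37 (SE 0.80, adjusted p = 0.0299 in the same edgeR fit), and H2-Aa, the class II member not called, had 1.65 (SE 0.65, adjusted p = 0.0567).

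The control result rested in part on M38. Leaving it out brought the class II median log2 fold change to 0.83 and left 6 of the 35 members called, all higher, namely H2-Oa, H2-Ob, Ciita, Tap1, Nlrc5 and Flt3, where 7041 of 14715 genes were called. Without M38, H2-Oa had a log2 fold change of 2.10 (SE 0.44) and Ciita 1.68 (SE 0.29), whereas Cd74 fell to 0.63 (SE 0.29, adjusted p = 0.0971 by edgeR's quasi-likelihood test) and H2-DMa to 0.54 (SE 0.26, adjusted p = 0.117). The number of members called was 4 without naive control M45 and 3 without naive control M44, where calls over all genes also fell, to 4574 of 15199 and 4880 of 15184. It was 21 without MI control M40 and 8 without MI Vegfc-deficient M913, where 6267 of 14674 and 7169 of 14741 genes were called. H2-Oa, H2-Ob and Flt3 were called in each of the 11 fits that left out 1 library. Flt3 had 7 reads or fewer in each naive library and passed the filter on low counts through its MI libraries, so its calls support nothing.

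In Vegfc-deficient hearts, 5 of the 35 members were called higher after MI and none lower by the same edgeR test, where 57.6% of all tested genes were called and 30% were called higher. They were H2-DMb2 from class II, Tapbp from class I loading, the costimulatory gene Cd80, and Flt3 and Cd209a from the dendritic cell list. An unadjusted p under 0.05 was found for 6 members, against 62.8% of all genes, and DESeq2 called 6, against 44.8%. The class II median log2 fold change was 0.77, against 0.10 over all tested genes. All 10 class II genes had a positive fitted value, and in 7 of them every MI library exceeded every naive library, a pattern that 33.6% of tested genes showed. Ciita had 1.52 (SE 0.63, adjusted p = 0.0612 by edgeR's quasi-likelihood test) and H2-DMa 0.02 (SE 0.61). Because the fit shares 1 estimate of spread across all groups, leaving M38 out of the control group raised this count to 10, with H2-Ab1, H2-Oa, Cd74, Ciita and Tap1 added to the 5, where 8557 of 14715 genes were called. It was 8 without MI control M40, 3 without naive Vegfc-deficient M34, 2 without naive Vegfc-deficient M150, 3 without MI Vegfc-deficient M900 and 5 without M149, the naive library with high Lyz2, and over all genes it ran from 6909 to 8481 in these 5 fits.

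**Figure D2:**
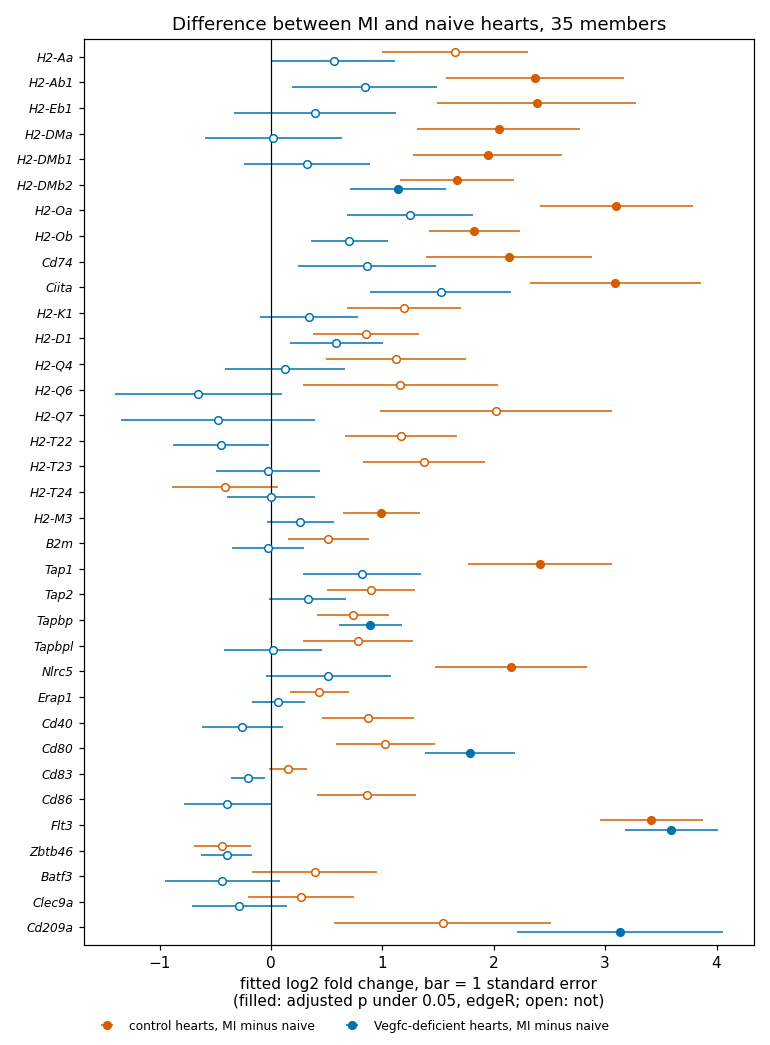
Fitted log2 fold change, MI minus naive, of the 35 members in control and Vegfc-deficient hearts; bars are 1 standard error, and filled points passed the 0.05 threshold in the edgeR fit. Class II genes lay between 1.65 and 3.10 in control hearts and between 0.02 and 1.52 in Vegfc-deficient hearts, and Flt3 lay at 3.42 and 3.59.

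The difference between those MI responses was itself tested as an interaction, and 0 of the 35 members were called by edgeR's quasi-likelihood test, as were 0 of all 14779 genes (0% called). H2-T22 was the 1 member with an unadjusted p under 0.05, where 8.3% of all genes had one, and DESeq2 called 0 members, against 0.387% of its genes. Different counts in the 2 genotypes, 13 against 5, are therefore not a tested difference between them.

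The classical class I heavy chains H2-K1 and H2-D1 were abundant in every library, as was their partner B2m, which averaged 2093 CPM per kilobase in naive controls against 289 for H2-D1 and 155 for H2-K1. H2-K1 (chr17:33996017-34000347, minus strand) was at 513 and 399 CPM in naive controls, 628, 349 and 471 CPM in naive Vegfc-deficient hearts, 1897, 634 and 596 CPM in MI controls and 415, 687 and 730 CPM in MI Vegfc-deficient hearts. M38 again stood alone. Over both genotypes the remaining MI libraries overlapped the naive ones, although M006 and M40 exceeded both naive controls. B2m moved less, from 1539 to 2209 CPM in naive libraries to 3785 CPM in M38 and 1540 to 2323 CPM in the other 5 MI libraries. In control hearts, where 26.3% of all genes were called higher, 1 of the 10 heavy chain and B2m genes was called higher after MI. It was the nonclassical gene H2-M3, at a log2 fold change of 0.99 (SE 0.35, adjusted p = 0.0349 by edgeR's quasi-likelihood test). In Vegfc-deficient hearts, where 30% of genes were called higher, none of the 10 was. There, 0 of the 10 had an unadjusted p under 0.05, against 62.8% of all genes, and DESeq2 called 0, against 44.8%.

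H2-D1, the other classical heavy chain, was at 628 to 946 CPM in naive libraries, 2126 CPM in M38, 544 CPM in M35 and 898 to 1474 CPM in the remaining 4 MI libraries. The Qa genes H2-Q4, H2-Q6 and H2-Q7, whose products are nonclassical or secreted class I molecules, had the same peak, with H2-Q7 at 90.5 CPM in M38, 7.52 to 15.9 CPM in the other MI libraries and 4.01 to 35.6 CPM in naive libraries. H2-T24 did not, at 5.92 to 21.9 CPM over all libraries, the highest being naive M149. The H2-K1 and H2-D1 promoters printed above carry TGACG and the Y box letters in the same order, as does that of B2m.

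**Figure D3:**
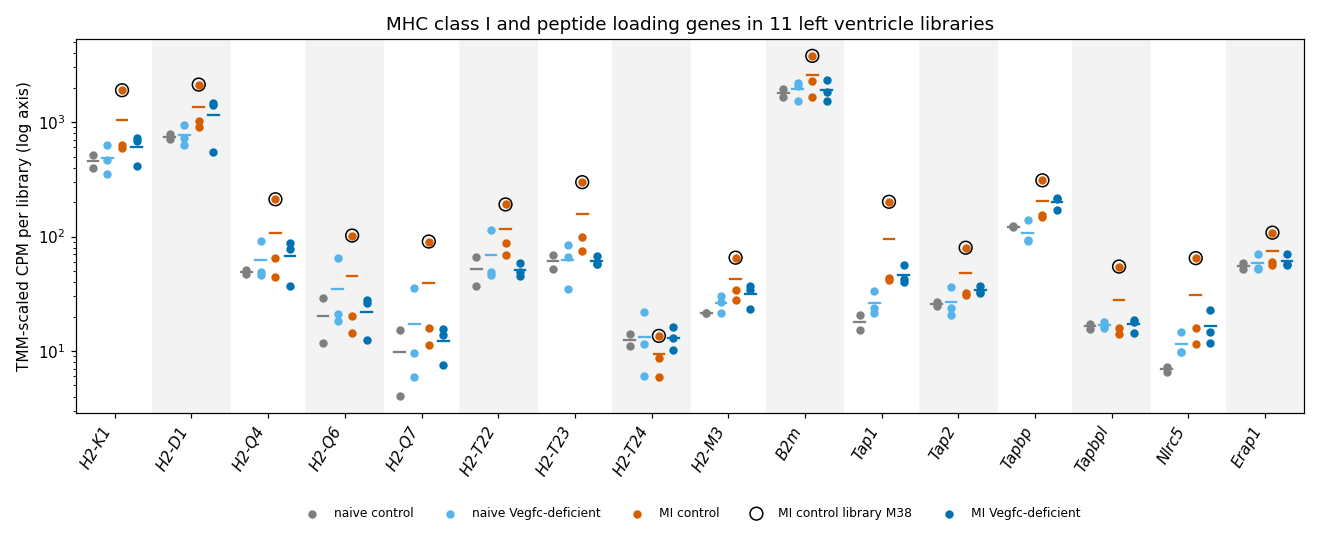
TMM-scaled CPM (log axis) of the 10 class I heavy chain and B2m genes and the 6 loading genes in each library; points are libraries, bars are group means, and a ring marks MI control M38. M38 was the highest MI library for 15 of the 16 genes, H2-T24 being the exception. Over both genotypes, the other MI libraries overlapped the naive ones for most heavy chains.

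Among the loading genes, Tap1, a subunit of the transporter that brings cytosolic peptides to class I, was at 20.7 and 15.3 CPM in naive controls and at 33.4, 23.8 and 21.3 CPM in naive Vegfc-deficient hearts. After MI it was at 201, 42.1 and 43.3 CPM in controls and at 40, 42.9 and 55.9 CPM in Vegfc-deficient hearts. All 6 MI libraries were above the 5 naive ones. The control log2 fold change was 2.41 (SE 0.65, adjusted p = 0.0111 by edgeR's quasi-likelihood test) and 1.19 (SE 0.24) without M38, and the Vegfc-deficient one was 0.82 (SE 0.53, adjusted p = 0.207).

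Nlrc5, the class I coactivator, was at 6.61 and 7.22 CPM in naive controls, 14.6, 9.8 and 9.9 CPM in naive Vegfc-deficient hearts, 64.8, 16 and 11.4 CPM in MI controls and 11.8, 14.7 and 22.6 CPM in MI Vegfc-deficient hearts. It rose in control hearts by a log2 fold change of 2.15 (SE 0.68) and by 0.92 (SE 0.33) without M38, with adjusted p of 0.0232 and 0.0414 (edgeR). The groups overlapped in Vegfc-deficient hearts. Tapbp, or tapasin, which bridges the transporter and class I, was at 92.8, 91.6 and 139 CPM in naive and 215, 172 and 213 CPM in MI Vegfc-deficient hearts, with a log2 fold change of 0.89 (SE 0.29, adjusted p = 0.0213 in the edgeR fit). Tap2, the partner of Tap1, the editing protein Tapbpl and the peptide-trimming enzyme Erap1 were not called in either genotype, and outside M38 they stayed at 20.6 to 37.1, 14.0 to 18.8 and 52.2 to 70.1 CPM. Over the 16 class I and loading genes the median log2 fold change was 1.06 in control hearts, 0.27 without M38, and 0.10 in Vegfc-deficient hearts.

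Flt3, the receptor for the cytokine that sustains dendritic cell development, differed most between MI and naive hearts. It was at 0.634 and 0.624 CPM in naive controls, 0.407, 0.605 and 0.196 CPM in naive Vegfc-deficient hearts, 8.62, 7.48 and 4.26 CPM in MI controls and 5.7, 4.27 and 4.57 CPM in MI Vegfc-deficient hearts. The 6 MI libraries did not overlap the 5 naive libraries, and M38 was close to M006. With 7 reads or fewer in each naive library, Flt3 entered the fit through the MI libraries, where it was high. Its log2 fold change was 3.42 (SE 0.46) in control hearts and 3.59 (SE 0.42) in Vegfc-deficient hearts, with adjusted p of 0.000419 and 0.000104 (edgeR), and it was 3.14 (SE 0.46) in controls without M38.

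The other dendritic cell members were not called in control hearts. Zbtb46, a transcription factor of conventional dendritic cells that endothelial cells also express, was at 19.1 to 33 CPM in naive libraries and 14.8 to 24 CPM in MI libraries. Batf3, needed for type 1 conventional dendritic cells, was at 10.5, 4.31 and 2.49 CPM in MI controls and 1.53, 3.73 and 2.14 CPM in MI Vegfc-deficient hearts, against 2.78 to 4.8 CPM in naive libraries. Neither was called in either MI comparison, nor was Clec9a, a receptor for dying cells on type 1 dendritic cells, at 3.71 to 15 CPM over all libraries. Cd209a, a lectin of monocyte-derived and type 2 dendritic cells, was at 1.81 and 2.32 CPM in naive controls and 1.22, 0.363 and 1.18 CPM in naive Vegfc-deficient hearts. After MI it was at 6.97, 0.592 and 10.4 CPM in controls and 10.9, 2.73 and 11.5 CPM in Vegfc-deficient hearts. MI control M006 was below both naive controls, while the MI and naive Vegfc-deficient libraries did not overlap, with a log2 fold change of 3.13 (SE 0.93, adjusted p = 0.0149 by edgeR's quasi-likelihood test).

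**Figure D4:**
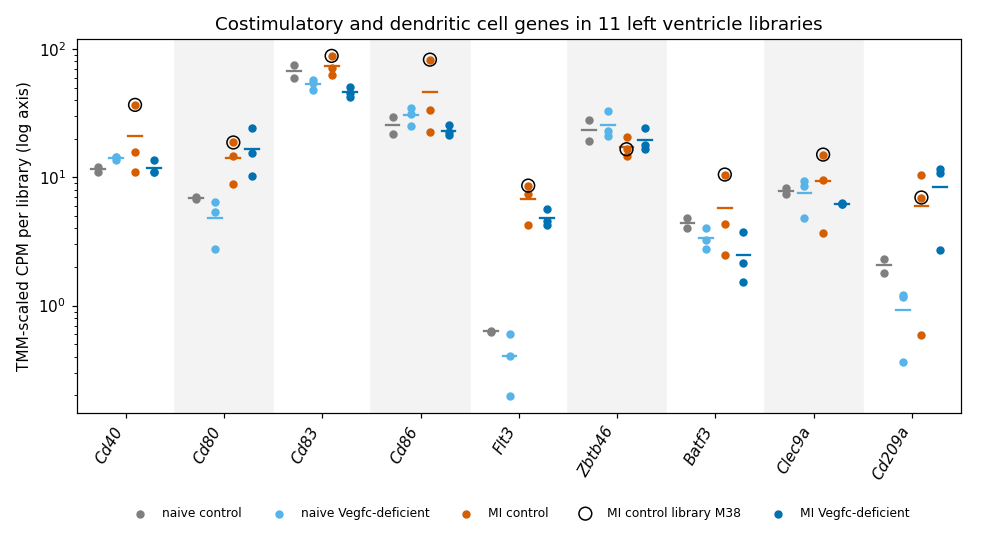
TMM-scaled CPM (log axis) of the 4 costimulatory and 5 dendritic cell genes in each library; points are libraries, bars are group means, and a ring marks MI control M38. Flt3 separated all MI from all naive libraries, Cd209a spread from 0.592 to 11.5 CPM among MI libraries, and Cd83 was lower in each MI Vegfc-deficient library than in each MI control.

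Of the costimulatory genes, which give T cells their second signal, Cd80 was at 7.07 and 6.78 CPM in naive controls, 2.77, 5.33 and 6.47 CPM in naive Vegfc-deficient hearts, 18.7, 8.83 and 14.7 CPM in MI controls and 10.2, 15.4 and 24.2 CPM in MI Vegfc-deficient hearts. All MI libraries were above all naive ones. The log2 fold change was 1.79 (SE 0.40, adjusted p = 0.00368 by edgeR's quasi-likelihood test) in Vegfc-deficient hearts and 1.03 (SE 0.45, adjusted p = 0.077) in control hearts. Cd86, its paralogous ligand of CD28, was at 82.7, 33.6 and 22.4 CPM in MI controls and 22.6, 21.3 and 25.5 CPM in MI Vegfc-deficient hearts, within or near the naive range of 21.6 to 34.9 CPM apart from M38. Cd40, through which helper T cells activate antigen-presenting cells, was at 36.7 CPM in M38 and 10.9 to 15.9 CPM in the other 10 libraries. It was the 1 member whose MI Vegfc-deficient libraries, at 11.1, 13.5 and 11.1 CPM, all lay below the naive ones, at 14.5, 13.7 and 14.5 CPM, against 30.7% of genes.

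When infarcted hearts were compared by genotype, 0 of the 35 members were called by edgeR's quasi-likelihood test, nor were any of the 14779 genes (0% called). An unadjusted p under 0.05 was found for 13 members, against 7.94% of all genes. DESeq2 called 1 member, Cd83, and 61 genes in all. That is 0.837% of the 7289 genes to which it gave an adjusted p in this comparison, and how many members were among them was not counted. Fitted values were lower in Vegfc-deficient hearts for 30 of the 35, with medians of -1.42 for class II, -0.69 for class I and loading and -0.60 for costimulatory and dendritic cell genes, against -0.01 over all genes. When M38 was left out, 17 members had negative and 18 positive values, the class II median was -0.10 and the class I and loading median 0.14, and 2 members had an unadjusted p under 0.05. Over all genes, 933 of 14715 had an unadjusted p under 0.05 in that fit. The number of such members was 24 without MI control M40, 7 without MI Vegfc-deficient M35, 3 without M913 and 4 without M900. In that order, the counts over all genes were 1457 of 14674, 874 of 14758, 1346 of 14741 and 910 of 14717. The excess of negative values thus depended on M38.

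Members whose MI groups did not overlap were 4, all lower in Vegfc-deficient hearts, namely H2-Oa, H2-T22, H2-T23 and Cd83, a pattern that 6.12% of tested genes showed in that direction, while 0 members lay wholly higher, against 5.99% of genes. Cd83, which holds class II and CD86 at the surface of mature dendritic cells, was at 88.5, 70.7 and 63.3 CPM in MI controls and 42.6, 50.9 and 45.7 CPM in MI Vegfc-deficient hearts. Its log2 fold change was -0.68 (SE 0.15), with an adjusted p of 0.584 (edgeR) and 0.0453 (DESeq2), and -0.50 (SE 0.14) without M38. H2-T23, or Qa-1, a ligand of inhibitory receptors on natural killer cells, was at 299, 99.9 and 75.4 CPM in MI controls and 67.4, 57.3 and 57.7 CPM in MI Vegfc-deficient hearts, with -1.38 (SE 0.47) and -0.49 (SE 0.31) without M38. H2-T22 was at 191, 87.8 and 68.6 CPM against 59.1, 45.6 and 48.6 CPM. Both T-region genes moved with the H2-Ea-ps reads described below, where a fit with a term for those reads is given. No MI control library had such reads, so their part in these differences cannot be fully told apart from genotype.

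In naive hearts no genotype difference was detected for any member by edgeR's quasi-likelihood test, with 0 of 35 called and 0% of all genes called. Without M149, the Vegfc-deficient library with Lyz2 at control level, 0 members and 17 of 14791 genes were called. In that fit 0 members and 983 genes had an unadjusted p under 0.05. No member had an unadjusted p under 0.05, against 3.38% of genes, and DESeq2 called 0 members, against 0.073% of its genes. The Vegfc-deficient libraries lay wholly above the controls for 4 members, H2-M3, Tap1, Nlrc5 and Cd40, and wholly below for 4, Cd80, Cd83, Flt3 and Cd209a, against 12.3% and 10.1% of genes. The class II median log2 fold change was 0.15 and that of class I and loading 0.09.

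M38 stood apart from the other 5 MI libraries for most members. It was the highest MI library for 31 of the 35, where 19.6% of all genes showed that, and it exceeded the next MI library by over 2 times for 21 of the 35, where 1.83% did. The median ratio of M38 to the median of the other 5 was 5.85 for class II, 3.11 for class I and loading and 1.89 for costimulatory and dendritic cell genes. The members that did not peak in M38 were H2-T24, Cd80, Zbtb46 and Cd209a. As M38 was singled out after its values were seen, these ratios are a description.

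Other lists moved with the members in M38. Among T cell markers, all 9 found exceeded 2 times the next MI library, and their summed level was 219 CPM in M38, 22.2 to 40.6 CPM in the other 5 MI libraries and 6.24 to 19.5 CPM in naive libraries. For natural killer cells this held for all 5 markers, with sums of 121, 13.2 to 20.6 and 3.04 to 9.20 CPM. Ifng, the interferon that induces Ciita and Nlrc5, was at 5.04 CPM in M38 and at most 0.166 CPM elsewhere. M38 was also the highest MI library for 4 of 4 pan-leukocyte, 3 of 4 monocyte, 6 of 7 type 1 dendritic cell and 5 of 8 macrophage genes. It was highest for 1 of 5 type 2, 2 of 5 mature migratory and 1 of 4 plasmacytoid dendritic cell genes. Among neutrophil genes this held for 1 of 5 and among plasma cell genes for 0 of 4, against 19.6% of all genes. B cell markers were not raised, with 0 of 7 highest in M38 and a sum of 33.3 CPM against 24.6 to 40.5 CPM. The 4 endoplasmic reticulum chaperones that assist class I folding were not highest in M38 either. The part of these cells and signals in the levels of the members was not tested.

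A further difference between libraries ran across the groups. H2-Ea-ps, the E alpha chain gene, is defective in the C57BL/6 haplotype and intact in some others, and it had 17, 12, 23, 69 and 92 reads in M44, M150, M149, M913 and M900 and 0 or 1 read in the other 6 libraries. The same 5 libraries had a lower ratio of H2-Eb1 to H2-Aa reads, at 0.224 to 0.282, than the other 6, at 0.517 to 0.680. Their ratio of H2-D1 to H2-K1 was 1.80 to 2.15 against 1.12 to 1.70, and that of H2-T22 to H2-M3 was 1.22 to 2.15 against 2.48 to 3.75. H2-T10, a neighbour that shares 31.2% of the 50-base stretches of H2-T22, was at 0.403 to 0.636 of H2-T22 in the 5 libraries and 0.0418 to 0.170 in the others. The ratio of H2-T23 to H2-M3 was 1.54 to 2.47 against 2.73 to 4.57. These 5 of the 13 ratios computed did not overlap between the 5 and the 6 libraries, which were separated after the reads of H2-Ea-ps were seen. The other 8 overlapped, among them H2-DMb2 to H2-DMb1 at 0.186 to 0.363 against 0.0687 to 0.257, and the ratios of H2-Ab1 and Cd74 to H2-Aa, H2-T24 to H2-M3, H2-Q7 to H2-Q6 and H2-Q4, H2-Q6 and B2m to H2-K1.

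**Figure D5:**
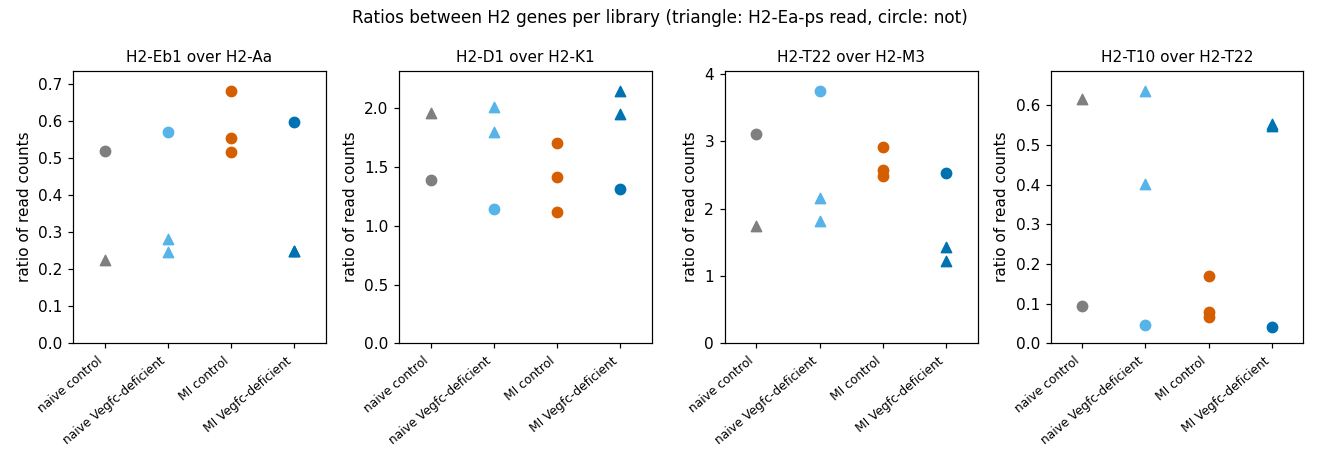
Ratio of read counts between pairs of H2 genes in each library by group; triangles are the 5 libraries with more than 3 reads on H2-Ea-ps, circles the other 6. H2-Eb1 over H2-Aa lay at 0.224 to 0.282 for triangles and 0.517 to 0.680 for circles, and the MI control group held circles only.

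Of the MI control libraries 0 of 3 belonged to the 5, of the MI Vegfc-deficient libraries 2 of 3, of the naive control libraries 1 of 2 and of the naive Vegfc-deficient libraries 2 of 3. H2-Eb1 within the groups followed the split, at 283 and 104 CPM in naive controls M45 and M44, 316, 159 and 98.9 CPM in naive Vegfc-deficient M34, M150 and M149, 2288, 441 and 306 CPM in MI controls and 339, 170 and 246 CPM in MI Vegfc-deficient M35, M913 and M900. With a term for the split in the edgeR fit, 0 members were called between MI genotypes, as were 0 of 14779 genes. There, 1 member had an unadjusted p under 0.05, against 943 of 14779 genes. Values were negative for 33 of 35 members, with a median of -0.01 over all genes. In control hearts after MI 8 members were called, against 7008 of 14779 genes. Strain background, relatedness and the mapping of reads from other haplotypes are not given per animal in the sources used here, and their part was not tested. Reads of the heavy chain genes could also be split between copies, as 32% of the 50-base stretches of H2-Q6, 26.4% of H2-Q7 and 34.5% of H2-T22 occur in other genes.

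The rest of the pathway was described from lists of related genes, and the dendritic cell genes and Psme1 named here were picked after their values were seen. Their counts stand beside all-gene shares of 50.4% called in control hearts (26.3% higher, 24.1% lower) and 57.6% in Vegfc-deficient hearts (30% higher, 27.7% lower). An unadjusted p under 0.05 in the edgeR fit was found for 57.3% of all genes in control and 62.8% in Vegfc-deficient hearts. The immunoproteasome subunits Psmb8, Psmb9 and Psmb10 and the activator genes Psme1 and Psme2, which shape peptides for class I, held 0 of 5 called in control hearts, with 1 at an unadjusted p under 0.05, and 3 of 5 lower in Vegfc-deficient hearts by edgeR's quasi-likelihood test. Psme1 had the largest decrease, at -1.23 (SE 0.27). The constitutive catalytic subunits Psmb5, Psmb6 and Psmb7 were lower after MI in both genotypes, 3 of 3 each, and Psmb7 had -1.30 (SE 0.20) in control hearts. M38 was the highest MI library for all 5 immunoproteasome and activator genes, with Psmb8 at 358 CPM against 56.3 to 108 CPM. The 5 class II processing proteases, among them Ctss, had 0 called in either genotype, with 0 and 2 at an unadjusted p under 0.05. Their sum was 2018 and 1846 CPM in naive Vegfc-deficient M34 and M150 and 9684 CPM in M149, against 4218 to 9740 CPM after MI. With that spread among naive hearts, the absence of calls is not read as no change.

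Of the factors that build the class II enhanceosome, 5 of 7 were called in each genotype, in both directions, against 50.4% and 57.6% of all genes. Rfx5 was higher, at a log2 fold change of 1.36 (SE 0.22) in control and 1.25 (SE 0.19) in Vegfc-deficient hearts, whereas Rfxank, Nfyc and Rfxap were lower. In the interferon gamma list 5 of 9 were called in control hearts, 4 higher and 1 lower, with Irf8 at 2.07 (SE 0.39) and the receptor chain Ifngr2 at -1.36 (SE 0.20), and 4 of 9 in Vegfc-deficient hearts, 3 higher and 1 lower, shares near those of all genes. Genes of mature migratory dendritic cells were higher in 5 of 5 in control hearts and 3 of 5 in Vegfc-deficient hearts, against 26.3% and 30% of all genes, with Ccr7, the receptor that guides them to lymph nodes, at 3.05 (SE 0.69) and 1.90 (SE 0.56). Ccr7 was at 0.892 to 1.95 CPM in naive libraries and at 3.05 to 15.6 CPM in MI libraries, without overlap. In the list for type 1 conventional dendritic cells, 5 of 7 were called in control and 4 of 7 in Vegfc-deficient hearts, all higher, against the same shares, with Xcr1 at 2.56 (SE 0.76) and 1.92 (SE 0.67), although Batf3 and Clec9a of the same list were not called. In the type 2 list 1 of 5 was called in control hearts, lower, and 2 of 5 in Vegfc-deficient hearts, 1 higher and 1 lower. Mgl2 was the lower one in both, at -2.26 (SE 0.46) and -2.68 (SE 0.44), and the higher one was Cd209a. Some of these markers are not particular to dendritic cells in heart tissue, as Cadm1, Fscn1 and Cacnb3 are also expressed by other cells. In each genotype 1 of 2 other class II chains and 2 of 10 other class I genes were called higher. Class I chaperones were called higher in 1 of 4 in control and 2 of 4 in Vegfc-deficient hearts. For plasmacytoid dendritic cell genes it was 2 of 4 and 1 of 4. Of other costimulatory and coinhibitory ligands 2 of 6 were called higher in each genotype, and 1 was lower in Vegfc-deficient hearts. All stand against the same shares.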

How the data were processed

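Poly(A) RNA from left ventricle was sequenced from stranded libraries (TruSeq Stranded mRNA, per the labels). The authors deposited raw read counts per Ensembl gene, 1 table per library. Their notes name mm10, cutadapt 1.13, STAR, HTSeq 0.6.1p1 and DESeq2 1.14.1 without roles, and the strand setting of counting is not given in the sources used here. Symbols and lengths were taken from GENCODE M21, and promoter windows from RefSeq (GRCm38.p6).

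All 11 libraries, grouped by their labels, were fitted together in edgeR 4.0.16 (R 4.3.3, limma 3.58.1) with filterByExpr, TMM scaling and glmQLFTest, with 7 residual degrees of freedom and Benjamini-Hochberg adjustment over all 14779 genes tested. The fit was tested on simulated data. Standard errors were the log2 fold change over the root of F. Floors of 3 counts cover counting error only. Replicate pairs differed by 8.24 to 163 times counting noise, and nothing states which libraries share a litter or run.

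Every member was to be named, with the largest called changes of each pathway list, and some lists are given by counts alone. The members and lists were chosen with earlier results of these data known. Shares for DESeq2 are over the genes to which it gave an adjusted p, a number that differed between comparisons. Alternatives were DESeq2 1.42.0, its size factors, other filters, a threshold of 0.01, the compared groups alone and each library left out, and a term for H2-Ea-ps reads was added after seeing the data.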

Additional observations from a re-analysis of the deposited data

How the results depend on the processing

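Of the 35 members, 4 were called after MI in control hearts when only the compared groups were fitted, against 6832 of 14481 genes. With a term for H2-Ea-ps reads, an alternative chosen after seeing the data, 8 were called, against 7008 of 14779 genes. At an adjusted p under 0.01 the number was 4, and calls over all genes were not counted at that threshold. Leaving out 1 library gave 3 (naive control M44) to 21 (MI control M40), and 6 without M38. In that order, these fits called 4880 of 15184, 6267 of 14674 and 7041 of 14715 genes. In Vegfc-deficient hearts the number was 2 at 0.01 and 11 for the compared groups alone, where 7966 of 14009 genes were called. Leaving out 1 library gave 2 (M150) to 10 (M38), where 7097 of 14791 and 8557 of 14715 genes were called. Between MI genotypes DESeq2 called 1 member, Cd83, against 0.837% of the 7289 genes to which it gave an adjusted p, and edgeR 0, against 0% of all genes. The H2-DMa log2 fold change in Vegfc-deficient hearts, 0.02, was -0.038 with DESeq2 size factors and -0.029 with DESeq2, and ran from -0.10 to 0.25 with 1 library left out. The cause was not tested.

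With 1 library left out, the median log2 fold change in control hearts after MI ran from 0.83 to 2.52 for class II, from 0.27 to 1.33 for class I and loading and from 0.068 to 1.05 for dendritic cell and costimulatory genes. Between MI genotypes it ran from -1.82 to -0.10, from -1.02 to 0.14 and from -0.78 to -0.14. No paired analysis was possible because the labels give mouse numbers and no replicate numbers shared between groups. With 2 naive controls, and sex and MI inseparable, these values cannot separate those sources. Depth limits Flt3 in naive hearts, where it was at 0.196 to 0.634 CPM against floors of 0.244 to 0.363 CPM.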
